A study of Mus musculus with 19 samples.

Results

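The nuclear-encoded subunits of the respiratory chain and ATP synthase were examined in bulk RNA sequencing of mouse liver. Members were chosen by gene symbol: the Nduf a, b, c, s and v series, the Sdh genes, the Uqcr genes, the Cox genes numbered 4 to 8 and the Atp5 genes, kept where any group averaged 1 CPM or more (CPM being counts scaled to a common library size). Of 55836 genes in the table, 86 had such a name and 81 reached that level: 36 of complex I, 4 of complex II, 8 of complex III, 14 of complex IV, 18 of complex V, and Ndufa4, an Nduf gene now placed in complex IV and given apart. The lowest member was Cox8b, with a mean of 1.82 CPM in its highest group, and the first name left out was Cox6c2, at 0.267 CPM. Cox4i2, Cox6b2, Cox7b2 and Cox8c, isoforms known from lung or testis, were also below the limit, and the highest count of these 5 genes in any library was 5.

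Respiratory complexes I to IV pass electrons from NADH and succinate to oxygen. Complexes I, III and IV also pump protons across the inner mitochondrial membrane, which complex II does not, and complex V, the ATP synthase, uses that proton gradient to make ATP. Most of their subunits are encoded in the nucleus, translated in the cytosol and imported, while a small core set is encoded by mitochondrial DNA. Hepatocytes are rich in mitochondria, and several complex IV subunits exist in a liver type and a heart and skeletal muscle type.

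The 19 libraries came from 19 male wild-type C57BL/6 mice, 8 weeks old at the start, with 1 library per animal. CD + Veh (n = 4) received the control diet (CD, with fat at 10 kcal%, called chow in the sample labels) and a vehicle gavage (Veh, 0.1% Tween 20), and CD + PE (n = 5) received the same diet with polyethylene microplastic particles (PE, 2 mg per mouse and day) by gavage. MD + Veh and MD + PE (n = 5 each) received a diet that models metabolic dysfunction-associated steatohepatitis (the MASH diet, MD, with fat at 40 kcal%, fructose at 20 kcal% and cholesterol at 2%) with vehicle or PE. Feeding and gavage lasted 8 weeks, so all 4 groups were gavaged and all carried the vehicle.

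Total counts ranged from 10398820 to 15456729 per library, and every PE library (at most 12757617) held fewer than every vehicle library (at least 13406037). Library numbers ran from 39 to 47 in the vehicle groups and from 48 to 57 in the PE groups, so that PE, lower depth and later numbers cannot be told apart. A division between numbers 45 and 46, which runs through MD + Veh, was known from earlier work on these counts: Gm12338, a pseudogene that shares 31.8% of the 31-base words of Cox7c, had 68 to 136 counts in numbers 39 to 45 and 0 in numbers 46 to 57. The labelled tissue was checked with 7 hepatocyte genes, Alb among them, whose summed level was at least 50824 CPM in every library, lower in the MD groups (50824 to 66984 CPM) than in the CD groups (69150 to 97727 CPM). Genes of other cell types also differed with diet. In the vehicle groups, summed Kupffer cell genes were at 169 to 263 CPM in MD + Veh and 81.3 to 146 CPM in CD + Veh, and intestinal epithelium genes at 117 to 132 and 55.8 to 86.8 CPM. With PE, Kupffer cell genes were at 134 to 259 CPM on MD and at 67.3 to 103 CPM on CD apart from 1 library at 614 CPM, and intestinal genes at 114 to 233 and 70.2 to 103 CPM. Red blood cell genes were at 419.8 to 745 CPM in MD + Veh libraries 1 to 3, against 147 to 221 CPM in CD + Veh, and the part of these cell types in the members' values was not tested. Summed skeletal muscle genes (13 genes, Acta1 among them) stood at 4076 CPM in MD + Veh library 1 and at 545 CPM in CD + PE library 1, against at most 256 CPM elsewhere. In such tissue samples, fewer cells of a type and less RNA per cell cannot be told apart.

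Sequences of the members on which the results turned are given first. Atp5mc1, Atp5mc2 and Atp5mc3 encode the same proton-carrying c subunit of ATP synthase from separate genes. The last 120 coding bases before the stop codon are shown for each because in this stretch the 3 genes differ only at scattered bases. The whole transcripts differ more widely and are 612, 731 and 988 bases long. Capitals in Atp5mc1 mark bases at which either of the other genes differs, and capitals in the other genes mark bases that differ from Atp5mc1. The genes lie on GRCm39 chromosomes 11 (95959678 to 95966757), 15 (102571295 to 102580787) and 2 (73738779 to 73741933), all on the minus strand, and the stretches are from GENCODE transcripts.
Atp5mc1: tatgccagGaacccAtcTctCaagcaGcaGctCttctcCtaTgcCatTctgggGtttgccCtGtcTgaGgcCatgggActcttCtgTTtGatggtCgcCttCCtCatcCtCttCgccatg
Atp5mc2: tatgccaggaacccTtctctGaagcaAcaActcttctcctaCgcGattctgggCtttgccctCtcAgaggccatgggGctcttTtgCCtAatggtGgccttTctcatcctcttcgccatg
Atp5mc3: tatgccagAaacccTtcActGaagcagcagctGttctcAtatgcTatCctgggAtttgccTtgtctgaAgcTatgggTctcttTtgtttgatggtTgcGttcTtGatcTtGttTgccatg
Of these 120 bases, 16 differed between Atp5mc1 and Atp5mc2, and 21 between Atp5mc1 and Atp5mc3.

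The opposite case is Ndufb4, a complex I subunit on chromosome 16 (37467242 to 37474815, minus strand). Its 387 coding bases are found without a single difference in Ndufb4b, a row annotated as long noncoding RNA on chromosome 19 (25010486 to 25010967, plus strand), so that a read from the coding part fits both. The first 120 coding bases, shown because they are the same in both genes, are in lower case throughout.
Ndufb4 and Ndufb4b: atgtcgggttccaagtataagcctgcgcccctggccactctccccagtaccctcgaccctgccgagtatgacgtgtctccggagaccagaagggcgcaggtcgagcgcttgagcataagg

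Promoters were read from a RefSeq table (build GRCm38.p6, 250 bases before to 50 after each start), in which 66 of the 81 members were found, 13 of them under an older name. The motif of nuclear respiratory factor 1, a known regulator of mitochondrial genes, was searched as CGCANGCGC on both strands. It was found for 23 of the 66 members (34.8%), against 14.7% of 10201 tested genes and 6.31% of all 32851 single promoters. A member or tested gene was counted where any of its promoters held a match, so the share of single promoters is another measure. The YY1 motif AAGATGGC was found in 10 of 66 (15.2%, against 5.20% and 2.75%), the ETS-type motif CCGGAAG in 16 (24.2%, against 19.6% and 8.86%) and the ERR-type motif TCAAGGTCA in 2 (3.03%, against 0.323% and 0.423%). Matches to different motifs did not overlap in any of these promoters. Below are 90 bases upstream of the start for Sdhd, Ndufa5 and Cox6a1, with matches to the first motif in capitals, and for Atp5mc1, which had no match to any of the 4 motifs. They are shown because Sdhd, Ndufa5 and Atp5mc1 were among the members that differed between groups, while Cox6a1, which had 3 matches, 2 of them overlapping on opposite strands, did not. The windows lie at chr9:50603858-50603947 (Sdhd), chr6:24527691-24527780 (Ndufa5), chr5:115349051-115349140 (Cox6a1) and chr11:96075632-96075721 (Atp5mc1), all on the minus strand.
Sdhd: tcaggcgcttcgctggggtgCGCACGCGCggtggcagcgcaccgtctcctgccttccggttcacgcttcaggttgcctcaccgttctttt
Ndufa5: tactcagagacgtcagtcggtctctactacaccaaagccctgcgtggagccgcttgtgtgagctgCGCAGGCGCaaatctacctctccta
Cox6a1: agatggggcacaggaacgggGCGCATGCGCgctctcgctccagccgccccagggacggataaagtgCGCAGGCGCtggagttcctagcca
Atp5mc1: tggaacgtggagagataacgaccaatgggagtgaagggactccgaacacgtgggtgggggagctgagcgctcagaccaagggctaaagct

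In CD + Veh, 78 of the 81 members averaged at least 5 CPM and 40 averaged at least 100 CPM. Per kilobase of the canonical transcript, the highest levels were those of Atp5f1b, the catalytic beta subunit of ATP synthase (518 ± 13.4 CPM per kb, SD, n = 4), and of Atp5f1a, the alpha subunit (418 ± 17.5 CPM per kb). They were followed by the liver-type complex IV isoforms Cox8a (406 ± 30.8 CPM per kb) and Cox6a1 (382 ± 31.8 CPM per kb), whose spread overlapped that of Atp5f1a. At the low end of the scale stood the muscle-type isoforms Cox7a1 (2.36 ± 0.499 CPM per kb), Cox6a2 (0.444 CPM per kb) and Cox8b (0.00784 CPM per kb), the last with 1 count in 1 of these 4 libraries. Members were short, with a median transcript length of 1014 bases against 3250 over all genes tested, and 73 of 81 were shorter than that median. Their median GC content (51.3%) was close to that of all genes tested (50.0%), and they lay on 19 chromosomes, 3 of them on X.

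Across the 4 groups, the summed level of all 81 members was highest in CD + Veh and lowest in MD + PE. With vehicle it was 10801 ± 509 CPM on CD (SD, n = 4) and 9964 ± 279 CPM on MD, and with PE it was 9858 ± 652 CPM on CD and 8979 ± 449 CPM on MD (n = 5 each). Every MD + PE library (8529 to 9451 CPM) lay below every MD + Veh library (9534 to 10238 CPM) and every CD + Veh library (10160 to 11403 CPM), while CD + PE (8774 to 10350 CPM) overlapped all other groups. CD + PE library 2 gave the lowest sum of its group in each of the complexes, and its summed Kupffer cell genes (614 CPM) and red blood cell genes (443 CPM) were the highest of that group, against 67.3 to 103 CPM and 109 to 134 CPM in the other 4 libraries. The part of this in the sums was not tested. Single members followed the same order often: of 80 members tested, 65 (81.2%) had their lowest group mean in MD + PE, against 27.8% of all 13597 genes tested, and 51 (63.7%) had their highest in CD + Veh, against 30.6%. Cox6a2, counted among the 65, is a member only through its mean in MD + Veh.

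The sums by complex showed where this difference was widest in CPM. Such sums are led by the most abundant subunits. In CD + Veh, Atp5f1a and Atp5f1b of complex V averaged 1032 and 997 CPM, and Sdha of complex II averaged 506 CPM. Complex V stood at 3951 ± 152 CPM in CD + Veh, 3557 ± 55.8 in MD + Veh, 3480 ± 203 in CD + PE and 3125 ± 173 in MD + PE, and CD + Veh (3766 to 4139 CPM) overlapped no other group. Complex II, which oxidizes succinate and also belongs to the citric acid cycle, stood at 1004 ± 48.8 CPM in CD + Veh, 934 ± 11.9 in MD + Veh, 854 ± 39.4 in CD + PE and 845 ± 38.4 in MD + PE, and every PE library (at most 900.2 CPM) was below every vehicle library (at least 922 CPM). Complex I, the NADH dehydrogenase, stood at 2741 ± 129 CPM in CD + Veh and 2379 ± 130.0 CPM in MD + PE, with CD + PE (2601 ± 205) and MD + Veh (2585 ± 116) between and overlapping each other. Complex III ranged from 1224 ± 77.2 CPM in CD + Veh to 1055 ± 52.7 in MD + PE and complex IV from 1703 ± 101 to 1401 ± 74.5 CPM. Ndufa4 alone stood at 179 ± 12.9 CPM in CD + Veh, 178 ± 11.5 in MD + Veh, 185 ± 17.1 in CD + PE and 173 ± 8.77 in MD + PE, with overlapping libraries throughout.

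**Figure D1:**
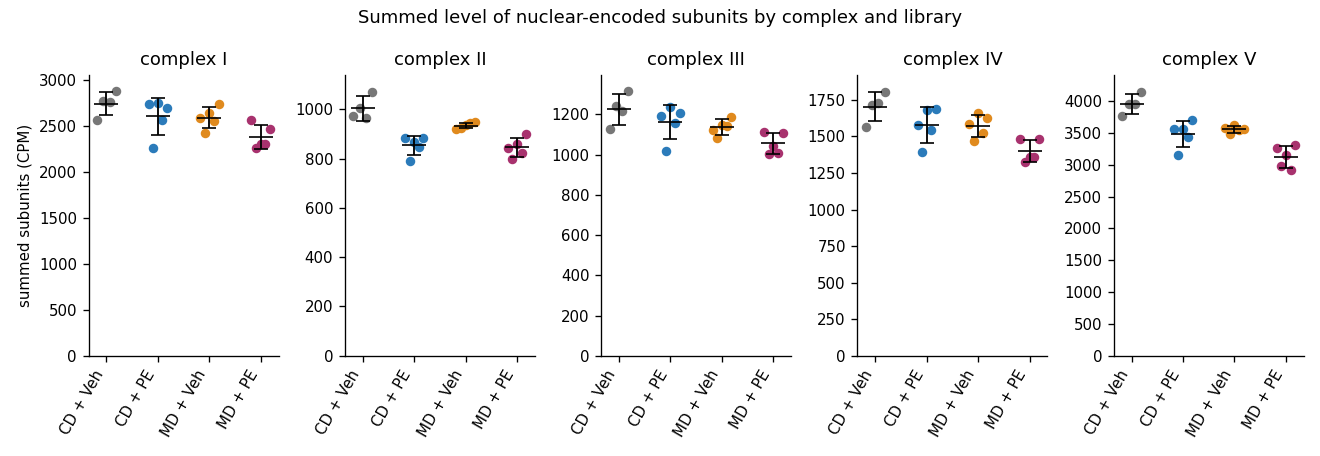
Summed TMM-scaled CPM of the members of complexes I to V (panels), with 1 point per library, the group mean (bar) and SD (whiskers). In complex V all MD + PE libraries (2913 to 3304 CPM) lie below all vehicle libraries, and in complex II all PE libraries lie below all vehicle libraries.

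Differences between groups were tested for each gene with edgeR's quasi-likelihood test over all 19 libraries, with p-values adjusted over all 13597 genes tested by the Benjamini-Hochberg method. A gene was called where the adjusted p was under 0.05 and the log2 fold change was 0.38 or more in size, the limits that the study used. Cox8b was below the filter on low counts, so 80 members were tested. The 4 comparisons are diet with vehicle (MD + Veh over CD + Veh), diet with PE (MD + PE over CD + PE), PE on CD (CD + PE over CD + Veh) and PE on MD (MD + PE over MD + Veh). The median log2 fold change of the members was -0.11 for diet with vehicle, -0.15 for diet with PE, -0.09 for PE on CD and -0.14 for PE on MD, beside medians of 0.00, -0.02, 0.01 and -0.01 over all genes tested. Negative values were found for 61 of 80 members (76.2%, against 50.5% of all genes), 75 (93.8%, against 53.3%), 56 (70%, against 48.9%) and 67 (83.8%, against 52.2%) in the same order. Without the muscle-type Cox6a2 and Cox7a1 they were 61 (78.2%), 73 (93.6%), 55 (70.5%) and 65 (83.3%) of 78. With each library's trend on transcript length and GC content taken out, the medians were -0.11 and -0.11 for the 2 diet comparisons and -0.02 and -0.02 for the 2 PE comparisons, beside -0.04, -0.03, 0.02 and 0.02 over all genes. The comparisons share their control groups, so these values are given side by side and not as separate support.

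**Figure D2:**
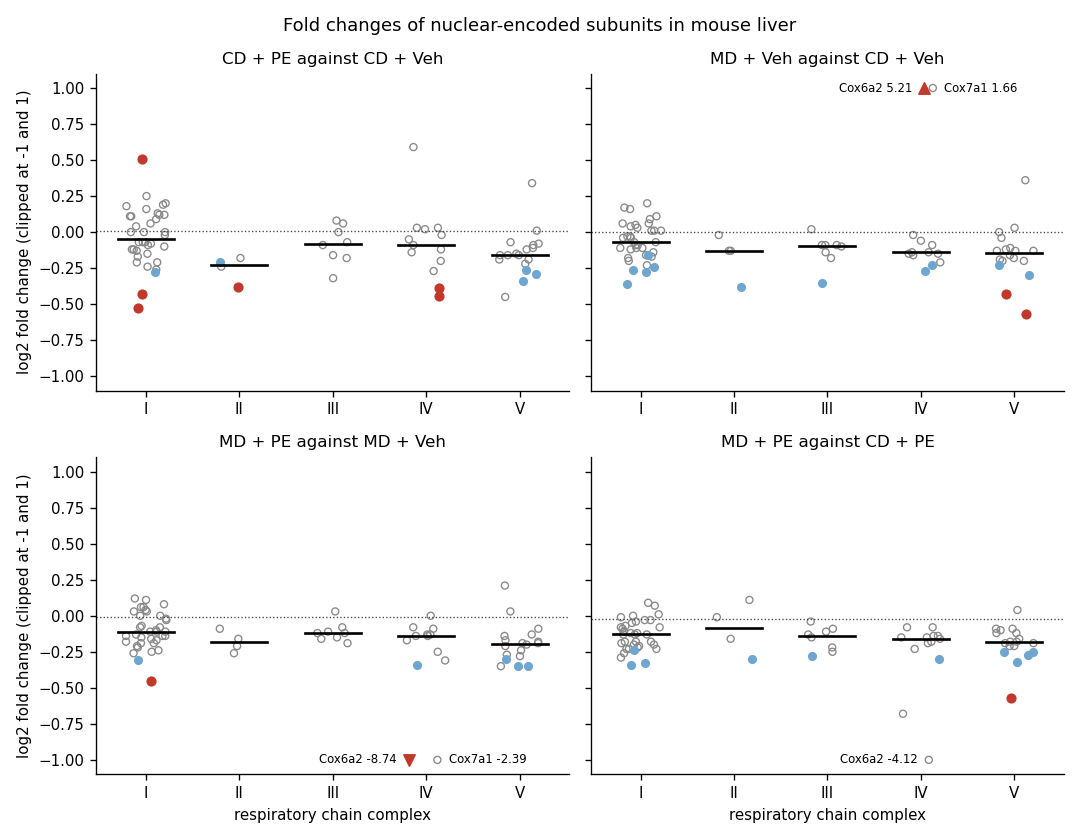
Log2 fold changes of the members (points) by complex in the 4 comparisons, clipped at -1 and 1, with names and values where clipped, and without Ndufa4. Filled red points were called, filled blue points passed the adjusted p alone, open points passed neither, bars are medians by complex and the dotted line is the median over all genes tested. Complex V has medians of -0.14 for diet with vehicle, -0.19 for diet with PE, -0.16 for PE on CD and -0.20 for PE on MD.

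The first question was what the MASH diet did in the vehicle groups. For diet with vehicle, 3 of 80 members were called, against 10.4% of all genes tested: Atp5mc1 and Atp5if1 fell, where the background for lower genes was 5.63%, and Cox6a2 was higher. Cox6a2 is a member only through its mean in MD + Veh (11 CPM, against 0.302 in CD + Veh, 0.416 in CD + PE and 0.0180 in MD + PE), so its direction against that group was set by the choice of members and it adds nothing to the count, which is 2 without it. By the adjusted p alone 14 members passed, Cox6a2 included, against 14.2% of all genes. Of these, 13 were lower, against 8.04%, and only Cox6a2 was higher. By complex, the adjusted p was passed downward by 5 of 36 members of complex I, 1 of 4 of complex II, 1 of 8 of complex III, 2 of 13 of complex IV and 4 of 18 of complex V. Without CD + Veh library 4 only Atp5mc1 was called, beside 1019 of 13829 genes. Without MD + Veh library 5 the count was 5, Cox6a2 and Cox7a1 among them, beside 1479 of 13560 genes.

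In complex V, Atp5mc1 stood at 83.7, 94.3, 96.8 and 98.3 CPM in CD + Veh and at 78.1, 65.2, 69.4, 60.9 and 72.5 CPM in MD + Veh. The groups did not overlap, and Atp5mc1 fell by 0.43 on the log2 scale (SE 0.0871, edgeR adjusted p = 0.00237). The same diet comparison under PE gave 83.1, 69.0, 79.3, 78.2 and 91.7 CPM in CD + PE against 58.7, 50.1, 53.5, 49.6 and 59.2 CPM in MD + PE. Here too every MD library was below every CD library, with a log2 fold change of -0.57 (SE 0.0834, edgeR adjusted p = 0.000261). Of the counts assigned to the 3 c subunit genes, Atp5mc1 took 26.6% ± 0.985 in CD + Veh, 22.5% ± 1.83 in MD + Veh, 24.6% ± 0.715 in CD + PE and 20.1% ± 1.17 in MD + PE (SD). Its partners differed less: Atp5mc3, the most abundant of the 3, stood at 252 ± 16.7, 231 ± 9.17, 239 ± 21.6 and 209 ± 13.4 CPM in the same order, and neither it nor Atp5mc2, at 5.38 to 7.01 CPM on average, passed the adjusted p in any comparison. Within library numbers up to 45, where 4 CD + Veh and 3 MD + Veh libraries lie, Atp5mc1 gave -0.39 (edgeR adjusted p = 0.0230), and with the division as a covariate -0.40 (adjusted p = 0.0131). Atp5mc1 shares 60.8% of its 31-base words with the pseudogene Gm10039, which had at most 6 counts in any library, and 20.8% with Adsl.

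Atp5if1, the inhibitor that stops ATP synthase from running in reverse, stood at 12.0, 12.4, 9.86 and 14 CPM in CD + Veh and at 8.49, 8.67, 7.84, 7.51 and 7.96 CPM in MD + Veh. All MD + Veh libraries were below all CD + Veh libraries, and Atp5if1 fell by 0.57 (SE 0.166, edgeR adjusted p = 0.0260). Under PE the libraries overlapped, at 10.1, 10.4, 8.48, 12.4 and 12.8 CPM in CD + PE and 6.50, 11.8, 6.95, 11.7 and 9.79 CPM in MD + PE. In MD + PE the values were spread widely, with 2 libraries below and 3 above all MD + Veh libraries. Atp5if1 is among the lowest members of complex V, and its call in the vehicle groups was lost without any 1 of CD + Veh libraries 1, 2 or 4 or MD + Veh libraries 3 or 4 (adjusted p 0.0519 to 0.104), and with the division of library numbers as a covariate (log2 -0.53, adjusted p = 0.0723).

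Of the other complex V members, Atp5mk, a small membrane subunit linked to pairing of the synthase, passed the adjusted p in each of the 4 comparisons without reaching the fold limit. It stood at 69.5 ± 6.03 CPM in CD + Veh, 56.3 ± 3.09 in MD + Veh, 55 ± 3.66 in CD + PE and 44.1 ± 4.13 in MD + PE. Its log2 fold changes were -0.30 and -0.32 for diet in the vehicle and PE groups and -0.34 and -0.35 for PE on CD and MD. Atp5pb, the b subunit of the peripheral stalk, passed the adjusted p for diet in the vehicle groups at -0.23. The member with the highest value was Atp5mc2, at 0.36 (adjusted p = 0.349). With PE in both groups, the stalk members Atp5pd (-0.25) and Atp5po (-0.25) and the membrane subunit Atp5mf (-0.27) passed it.

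In complex II, the membrane anchor Sdhd differed most with diet. It stood at 139, 135, 130.3 and 158 CPM in CD + Veh and at 98.8, 113, 106, 114 and 109.9 CPM in MD + Veh, with no overlap and a fold of 0.771 (log2 -0.38, SE 0.0681, edgeR adjusted p = 0.00101), just short of the fold limit. In the PE groups it stood at 119 ± 9.34 CPM in CD + PE and 96.8 ± 2.55 CPM in MD + PE (log2 -0.30, SE 0.0648, edgeR adjusted p = 0.00824), again without overlap. Sdhd was called for diet within library numbers up to 45 (log2 -0.40, adjusted p = 0.0214). Sdha, the flavoprotein that oxidizes succinate, stood in the vehicle groups at 506 ± 26.9 CPM in CD + Veh and 500.1 ± 9.94 CPM in MD + Veh (log2 -0.02, adjusted p = 0.870), and Sdhb, the iron-sulfur subunit, and Sdhc, the other anchor, each gave -0.13.

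In complex I, Ndufa6, an accessory subunit of the matrix arm, was the lowest for diet in both settings. Its levels were 152, 179.9, 172 and 198 CPM in CD + Veh and 128, 129.8, 132, 139 and 155 CPM in MD + Veh, so that only the highest MD + Veh library overlapped the lowest CD + Veh library (log2 -0.36, SE 0.0842, edgeR adjusted p = 0.00701). In MD + PE (130.5 ± 9.82 CPM) it was below CD + PE (166 ± 13.6 CPM) without overlap (log2 -0.34, adjusted p = 0.0129). The other complex I members that passed the adjusted p in the vehicle groups were Ndufc2 (-0.28), Ndufa8 (-0.26), Ndufa5 (-0.24) and Ndufa9 (-0.16). The highest complex I value was that of Ndufa10, at 0.20 (adjusted p = 0.0827).

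In complexes III and IV, Uqcrh, the acidic hinge subunit next to cytochrome c1, stood at 96.4, 107, 97.7 and 106 CPM in CD + Veh and at 76.7, 74.8, 89.7, 77.0 and 80.5 CPM in MD + Veh. The groups did not overlap (log2 -0.35, SE 0.0908, edgeR adjusted p = 0.0132). Cox7a2l, described as a factor in joining complexes III and IV into supercomplexes, which were not measured here, stood at 82.3 ± 7.03 CPM in CD + Veh and 68.4 ± 1.61 CPM in MD + Veh (log2 -0.27, SE 0.0764, adjusted p = 0.0250). Its level was 75.6 ± 8.75 CPM in CD + PE and 68.1 ± 3.68 CPM in MD + PE. The highest complex III value was that of Uqcrq (0.02). Cox7a2, the liver-type partner of Cox7a1, passed the adjusted p at -0.23, while the liver-type Cox6a1 gave -0.02 (adjusted p = 0.891) and Cox4i1, a main regulatory subunit, -0.15 (adjusted p = 0.227).

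Diet was compared a second time in the PE groups, all of whose libraries have numbers from 48. For diet with PE, 1 of 80 members was called, against 4.61% of all genes tested, and this was Atp5mc1, which fell, where the background for lower genes was 2.92%. By the adjusted p alone 11 passed, against 7.09% of all genes, all of them lower, against 4.59%. Besides Atp5mc1, Atp5mk, Atp5mf, Atp5pd, Atp5po, Sdhd and Ndufa6 these were Ndufb10 (-0.33), Cox7b (-0.30), Uqcr11 (-0.28) and Ndufv3 (-0.24), subunits of complexes I, IV and III. Without CD + PE library 2 the count called was 3, beside 987 of 13608 genes. Each of the 13 complex IV members, 8 complex III members and 17 of 18 complex V members tested had a negative value, the exception being Atp5mc2 (0.04). In the other complexes the highest values were those of Sdha (0.11) and Ndufb3 (0.09), and neither passed the adjusted p.

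The next question was what PE did within each diet. For PE on CD, 6 of 80 members were called, against 2.92% of all genes tested: Ndufa13, Cox6b1, Ndufa5, Cox5a and Sdhc fell, against a background of 1.70% for lower genes, and Ndufb4 was higher. By the adjusted p alone 11 passed, against 3.79%, and 10 of them were lower, against 2.29%. The 5 others were Atp5mk, Atp5mg (-0.29), Ndufs1 (-0.28), Atp5f1b (-0.26) and Sdha (-0.21). For PE on MD 2 members were called, against 1.08%, and both fell, Cox6a2 and Ndufa13, against 0.934% for lower genes. Without Cox6a2, whose value here was set by the choice of members, the count is 1. By the adjusted p alone 7 passed, or 6 without Cox6a2, against 1.52% (1.27% for lower genes). All were lower: Cox6a2, Ndufa13, Atp5mk, Atp5mc1 (-0.35), Cox5a (-0.34), Ndufa5 (-0.31) and Atp5mf (-0.30). Outside these, among members averaging at least 5 CPM over all libraries, the lowest values were those of Atp5me (-0.45, adjusted p = 0.0917) and Uqcrh (-0.32, adjusted p = 0.0534) on CD, and the highest were those of Atp5mc2 (0.34, adjusted p = 0.513) on CD and Atp5if1 (0.21, adjusted p = 0.580) on MD.

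Ndufa13, a complex I subunit that also has a described role in cell death, showed the widest difference with PE among abundant members. It stood at 146, 162, 166 and 161 CPM in CD + Veh and at 118, 96.7, 119.9, 99.3 and 118 CPM in CD + PE (log2 -0.53, SE 0.0908, edgeR adjusted p = 0.00317). On the MASH diet it stood at 149, 139, 159, 116 and 127 CPM in MD + Veh and at 107, 89.9, 99.4, 104 and 105 CPM in MD + PE (log2 -0.45, SE 0.0862, adjusted p = 0.0118). Neither pair of groups overlapped, but the last 2 MD + Veh values, from library numbers 46 and 47, lay below the other 3. Over all groups, numbers up to 45 gave 139 to 166 CPM and numbers from 46 gave 89.9 to 127 CPM. With the division as a covariate the PE values were -0.23 (adjusted p = 0.538) on CD and -0.27 (adjusted p = 0.411) on MD, and within numbers from 46 the MD value was -0.25 (adjusted p = 0.624).

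Sdhc, Cox6b1 and Atp5mg showed the same division. With Ndufa13 they were among the 5 of 80 members in which every library up to number 45 was higher than every library from 46, against 0.765% of all genes tested without overlap in either direction. Sdhc stood at 136, 148, 142 and 159 CPM in CD + Veh, 141, 133, 147, 119 and 126 CPM in MD + Veh, 115, 99.0, 112, 117 and 116 CPM in CD + PE and 111, 103, 110.3, 112 and 119 CPM in MD + PE. For PE on CD it fell by 0.38 (fold 0.766, SE 0.0712, edgeR adjusted p = 0.00526), and on MD the value was -0.26 (adjusted p = 0.0540). Cox6b1, a subunit on the outer face of complex IV, stood at 86.2, 103, 103 and 106 CPM in CD + Veh and at 79.4, 60.3, 79.8, 68.1 and 81.3 CPM in CD + PE (log2 -0.44, SE 0.0974, adjusted p = 0.0164). In MD + Veh it was 91.9 CPM on average up to number 45 and 78.5 CPM from number 46.

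**Figure D3:**
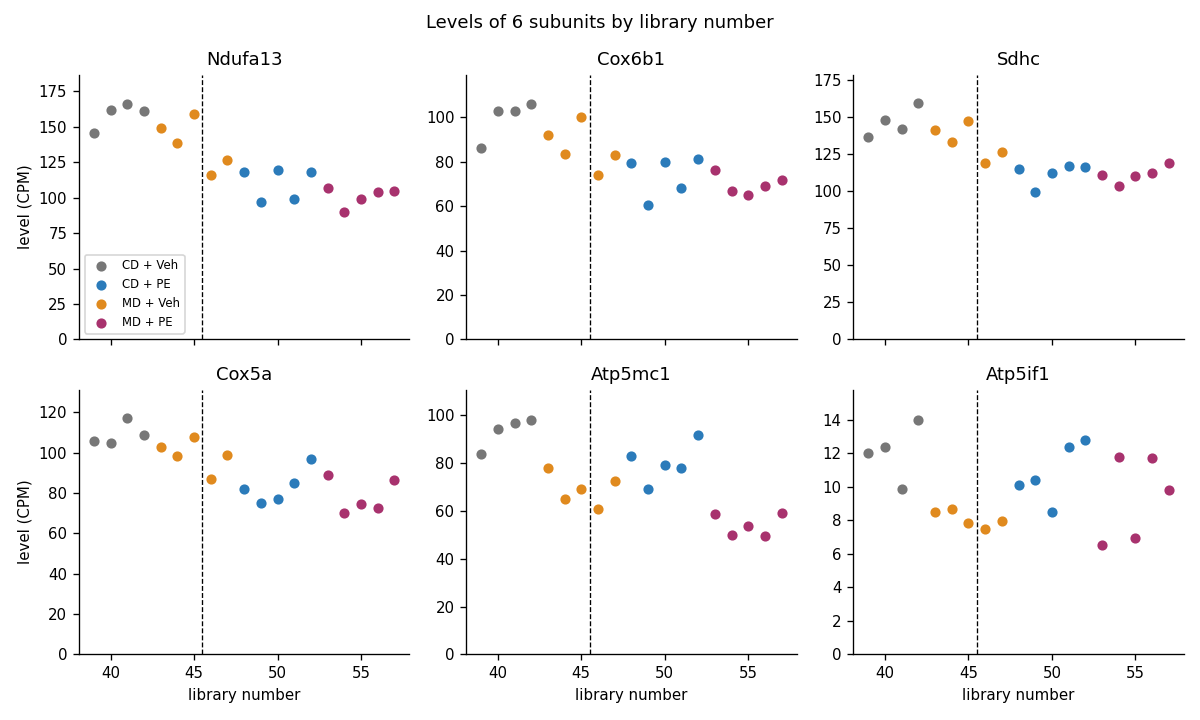
Level (CPM) of 6 members by library number, with 1 point per library coloured by group and a dashed line between numbers 45 and 46. Ndufa13, Cox6b1 and Sdhc are higher in every library left of the line than in any right of it, while Atp5mc1 is lower in every MD library than in any CD library both among the vehicle libraries and among the PE libraries.

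Ndufa5 and Cox5a were lower with PE on both diets, though their values on the MASH diet stayed under the fold limit. Ndufa5, an accessory subunit next to the quinone-binding region, stood at 48.4, 51.6, 50.0 and 58.6 CPM in CD + Veh and at 42.8, 34.6, 41.6, 37.0 and 38.0 CPM in CD + PE (log2 -0.43, SE 0.0741, edgeR adjusted p = 0.00329). All MD + PE libraries (35.7 ± 1.30 CPM) were below all MD + Veh libraries (44.3 ± 2.82 CPM). Cox5a, a core-binding subunit of complex IV, stood at 106, 105, 117 and 109 CPM in CD + Veh and at 82.0, 75.0, 77.1, 84.9 and 96.7 CPM in CD + PE (log2 -0.39, SE 0.0865, adjusted p = 0.0147). On the MASH diet Cox5a overlapped, with 99.1 ± 7.80 CPM in MD + Veh and 78.6 ± 8.53 CPM in MD + PE. Within MD + Veh, the libraries from number 46 were at 43.3 CPM for Ndufa5 and 92.9 CPM for Cox5a on average, against 45 and 103 CPM up to number 45.

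With the division as a covariate, no member was called for PE on either diet by edgeR (0 of 80, with an unadjusted p below 0.05 for 13 on CD and 22 on MD), and of all 13597 genes 37 were called on CD and 33 on MD. DESeq2, without that covariate, called 7 members on CD, beside 529 of 10402 genes, and 3 on MD, beside 299 of 14850. The 3 on MD were Ndufa13 and the muscle-type isoforms Cox6a2 and Cox7a1, both isoforms being highest in MD + Veh library 1. The other members of complex II gave values below 0 on CD without the covariate, with Sdha at -0.21 (adjusted p = 0.0444), Sdhd at -0.24 (adjusted p = 0.0535) and Sdhb at -0.18 (adjusted p = 0.290). With length and GC trends taken out, 4 members were called on CD, beside 341 of 13597 genes, Ndufa13 lower and Ndufb4, Ndufa1 and Ndufa3 higher. On MD that fit called Atp5mk alone, lower, beside 69 of 13597 genes, and Ndufa13 was no longer called. The count of 6 was 2 without CD + Veh library 4 and 3 without CD + PE library 2. On MD the count of 2 was 4 without MD + Veh library 4 or MD + PE library 1, and 1 without CD + Veh library 1 or 3, MD + Veh library 1 or MD + PE library 2, 3 or 4.

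Ndufb4 was the only member called higher with PE. It stood at 16.8, 17.8, 19.9 and 17.8 CPM in CD + Veh and at 27.5, 22.9, 24.6, 25 and 28.6 CPM in CD + PE, without overlap (log2 0.51, SE 0.127, edgeR adjusted p = 0.0307). Its copy Ndufb4b stood higher in CD + Veh (45.5 ± 3.27 CPM) than in CD + PE (34.8 ± 1.94 CPM). The sum of the pair was 63.6 ± 4.01 CPM in CD + Veh, 60.8 ± 5.23 in MD + Veh, 60.5 ± 3.13 in CD + PE and 56.2 ± 3.27 in MD + PE. With the counts of the copy added, the Ndufb4 value for PE on CD was -0.07 (adjusted p = 0.667). The share of Ndufb4 in the pair was 28.4% ± 1.49 in CD + Veh and 42.5% ± 2.43 in CD + PE, and in MD + Veh it was 28.7% to 32.0% in numbers 43 to 45 and 35.8% and 40.1% in numbers 46 and 47.

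**Figure D4:**
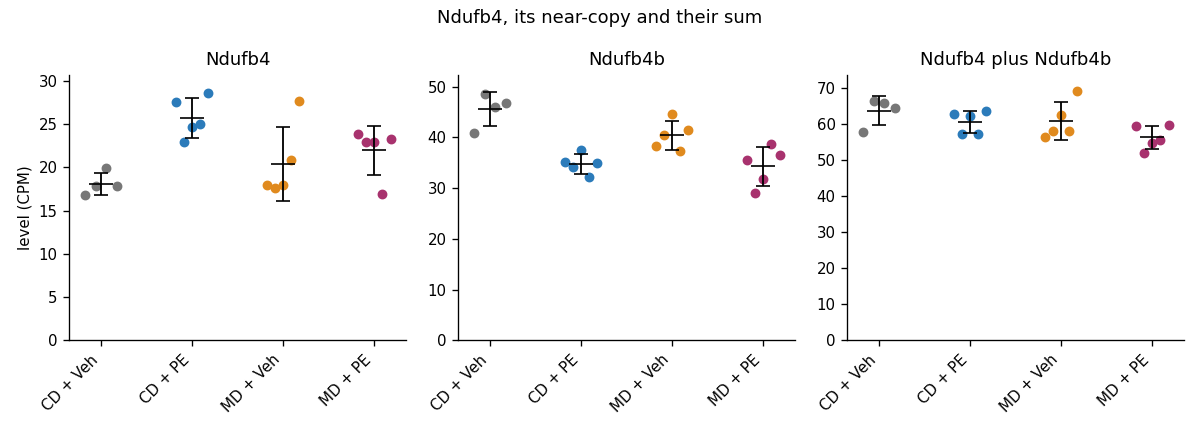
Level (CPM) of Ndufb4, its copy Ndufb4b and their sum in each library (points), with group mean (bar) and SD (whiskers). Ndufb4 is higher and Ndufb4b lower in CD + PE than in CD + Veh, and the sums overlap.

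The muscle-type isoforms of complex IV were each highest in the library with the most skeletal muscle signal. Cox6a2 had 778, 44, 43, 3 and 0 counts in MD + Veh and 1, 16, 0 and 0 in CD + Veh. With PE it had 24, 1, 0, 0 and 0 counts on CD and 0, 0, 0, 0 and 1 on MD. The highest count was in MD + Veh library 1, the library with the most Acta1 (12230 counts), followed by 3 libraries with 488 to 1863 Acta1 counts. Cox6a2 and Cox8b are members only through MD + Veh, and the calls of Cox6a2 for diet with vehicle and for PE on MD are a description, with overlapping groups. Where a group holds almost no counts, the fitted value depends on the prior count and gives no size. Without MD + Veh library 1 neither call was made (edgeR adjusted p = 0.257 and 0.157). Cox8b had 114, 12, 14, 2 and 0 counts in MD + Veh and at most 2 in any other library. Cox7a1 stood at 11.4 CPM in MD + Veh library 1 and at 0.163 to 1.84 CPM in the other 18 libraries. Their liver-type partners did not follow: in MD + Veh library 1, Cox6a1 was at 202 CPM, Cox7a2 at 86.8 CPM and Cox8a at 203 CPM, within or next to the range of the other MD + Veh libraries (202 to 235, 78.5 to 96.7 and 209 to 234 CPM).

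**Figure D5:**
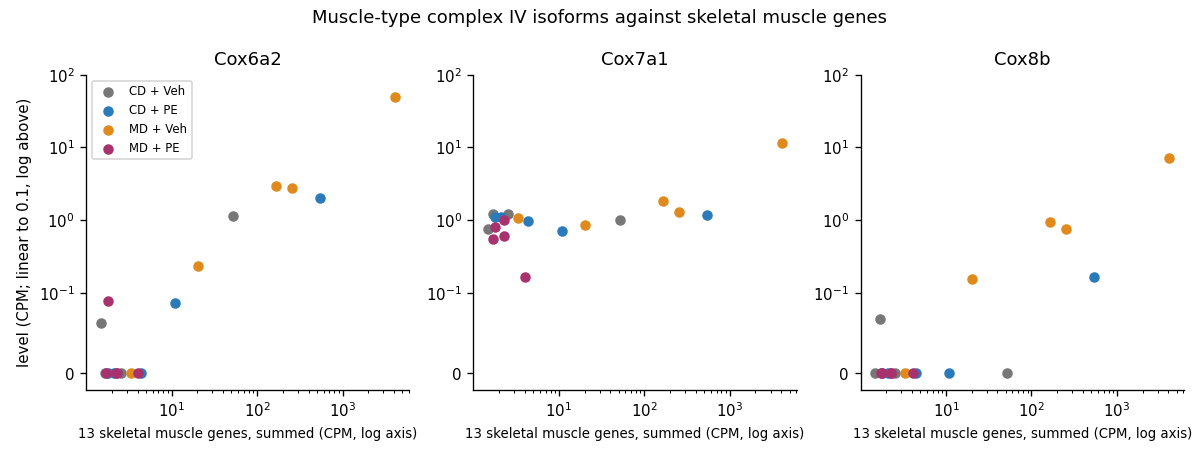
Level (CPM, linear to 0.1 and log above) of Cox6a2, Cox7a1 and Cox8b against the summed level of 13 skeletal muscle genes (CPM, log axis), with 1 point per library. MD + Veh library 1, at 4076 CPM of muscle genes, is highest in all 3 panels, and Cox7a1 lies between 0.163 and 1.84 CPM in all others.

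The interaction of PE and diet asks whether the PE difference was of another size on the MASH diet. No member was called (0 of 80, edgeR), against 0.00735% of all genes tested with or without the fold limit. DESeq2 called none of the members either, beside 81 of 13872 genes. An unadjusted p below 0.05 was found for 5 members (6.25%, against 8.77% of all genes): Cox6a2, Cox7a1, Ndufv3 (-0.30), Ndufb4 (-0.40) and Ndufs6 (-0.25). Without Cox6a2 and Cox7a1 it was found for 3 of 78 (3.85%). The median over members was -0.05, beside -0.02 over all genes.

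Other genes of the pathway are given by list. The 13 subunits encoded by mitochondrial DNA, summed, were at 81581 ± 9895 CPM in CD + Veh, 95464 ± 11643 in MD + Veh, 110403 ± 10394 in CD + PE and 99685 ± 11783 in MD + PE, so that the sum was higher in CD + PE than in CD + Veh without overlap, where the nuclear sum was lower on average. For PE on CD the median was 0.42, 12 of the 13 had an unadjusted p below 0.05 (92.3%, against 17.5% of all genes), and 3 were called (against 2.92%): mt-Nd1 (0.39) and mt-Nd5 (0.55) rose and mt-Nd3 (-0.67) fell. For PE on MD the median was 0.05, 2 of the 13 had an unadjusted p below 0.05 (15.4%, against 15.7%), and mt-Nd3 alone was called (-0.67, edgeR adjusted p = 0.0257). For diet none of the 13 passed the adjusted p (edgeR), and 3 had an unadjusted p below 0.05 with vehicle (23.1%, against 28.6% of all genes) and 3 with PE (23.1%, against 21.7%).

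Assembly factors, which build the complexes without staying in them, showed medians of -0.01, 0.03, -0.07 and -0.01 over 56 genes for PE on CD, diet with vehicle, PE on MD and diet with PE. For diet with vehicle 6 of the 56 passed the adjusted p, against 14.2% of all genes in either direction. All 6 were higher, where 843 of 13597 genes passed upward. Coa6 (0.41) was the 1 called, against 10.4% of all genes, and for diet with PE Cox11 (-0.51) was the 1 called, against 4.61%. Of 11 genes of coenzyme Q synthesis, 1 was called for diet with vehicle, against 10.4% of all genes. It was Coq8a, which was higher (0.60, edgeR adjusted p = 0.0191). Among 12 regulators of mitochondrial genes, 1 was called for diet with vehicle, against the same 10.4%. It was Esrra, a nuclear receptor that acts on respiratory genes, which was lower (-0.50, adjusted p = 0.00243). Esrra also passed the adjusted p at -0.38 for PE on CD, where 3.79% of all genes did. For diet with PE it passed at -0.34, where 7.09% did. The 78 mitochondrial ribosomal proteins had medians of -0.03, 0.00, -0.08 and -0.06 in the same order, and the 80 cytosolic ribosomal proteins, which are also short and abundant transcripts, had -0.10, -0.35, -0.05 and -0.30. Cyc1, Ndufab1 and the electron carrier Cycs, which the names leave out, had medians of -0.10, -0.10, -0.11 and -0.11. Of the 3, 2, 2, 2 and 3 were lower. Cycs went the other way for PE on CD, at 92.8 ± 4.46 CPM in CD + Veh and 114 ± 1.99 in CD + PE (SD), without overlap. Cycs stood at 102 ± 25.8 CPM in MD + Veh and 111 ± 9.99 in MD + PE. It also followed the division of library numbers, since every library up to number 45 was lower than every library from 46. In MD + Veh it was at 90.2, 75.6 and 91.9 CPM up to number 45 and at 111 and 143 CPM from number 46. None of the 3 genes passed the adjusted p (edgeR), with an unadjusted p below 0.05 for 2, 1, 1 and 0 of them.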

How the data were processed

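Livers of 19 mice in 4 groups were sequenced as poly(A) RNA. Per the labels and methods, the authors trimmed reads with fastp 0.23.4, quantified them with Salmon 1.10.3 against the GENCODE transcriptome of GRCm39 (release not given in the sources used here) and summed transcripts with tximport, and they deposited estimated counts per gene as whole numbers, without normalization. Groups were taken from the treatment labels, and column names gave the library numbers. The members and gene lists were chosen with earlier results of these data known.

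Counts were scaled by TMM, filtered with filterByExpr and tested with edgeR 4.0.16 (R 4.3.3) by quasi-likelihood with 1 coefficient per group, after a test on simulated data. SE is the log2 fold change divided by the square root of F. CPM are TMM-scaled, and 1 library per mouse is the replicate. Positions, transcript lengths and shared 31-base words came from GENCODE vM39 (GRCm39). Named genes were the called members, the extremes of each complex with at least 5 CPM, the tissue isoforms with their partners, Atp5if1, Ndufa4, Cox7a2l and the Sdh genes. Further members were named after their values were seen. Alternatives were RLE normalization, DESeq2 1.42.0, filters, robust dispersion, the groups compared alone, a replicate block, the division of library numbers as a covariate, pseudogene counts added, thinning to equal depth, an offset for length and GC content, and each library left out. Adding the counts of near-copies, leaving out 2 libraries with muscle genes and fits within the division were chosen after seeing the data.

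Over 27 pairs of libraries with 1 replicate number, residuals correlated with a median of 0.0293 and exceeded 0.1 in 6, so replicates were treated as unpaired. No 2 libraries of a group were copies. The values of 1 member are not reported here.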

Additional observations from a re-analysis of the deposited data

Results flagged for a closer look

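In 60 groups of libraries (5 complex sums and 11 members in 4 groups, less the 4 cases in which no library of the group reached 1 CPM), Dixon's test at the 95% level marked 8 libraries as standing apart, and chance marks about 1 in 20 groups. Among these, 5 are muscle-type isoforms: Cox6a2 at 49.3 CPM, Cox7a1 at 11.4 CPM and Cox8b at 7.23 CPM in MD + Veh library 1, and Cox6a2 at 1.99 CPM in CD + PE library 1 and at 1.15 CPM in CD + Veh library 2. In each of these libraries the summed skeletal muscle genes were the highest of the group, at 4076, 545 and 52.1 CPM.

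The other 3 were abundant or copied members. Cox6b1 was at 86.2 CPM in CD + Veh library 1, against 103 to 106 CPM in the rest of the group, and the group still lay above all of CD + PE (at most 81.3 CPM). Ndufb4 was at 16.9 CPM in MD + PE library 4, against 22.9 to 23.8 CPM in the other 4, and the share of Ndufb4 in the pair with Ndufb4b was 30.4% there. Sdhc was at 99.0 CPM in CD + PE library 2, the library with the lowest sums of its group, against 112 to 117 CPM.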

How the results depend on the processing

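Medians over members kept a negative sign in each alternative run for the diet and PE comparisons. The median for MD + PE against MD + Veh was -0.02 with the length and GC offset, against -0.14, and leaving out 1 library gave -0.13 to -0.05 for PE on CD, -0.13 to -0.08 for diet with vehicle, -0.17 to -0.12 for PE on MD and -0.19 to -0.13 for diet with PE. Atp5mc1 kept its call for diet in both settings under every alternative fitted. Ndufb4 for PE on CD reversed to -0.07 with copy counts added.

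Counts of members called, Cox6a2 included, moved as follows. Without a minimum fold they were 11 for PE on CD, 14 for diet with vehicle, 7 for PE on MD and 11 for diet with PE. With the division of library numbers as a covariate they were 0, 5 and 0 in the first 3, beside 37, 1576 and 33 of 13597 genes. The 5 for diet were Atp5mc1, Ndufa6 and Sdhd lower and the muscle-type Cox6a2 and Cox7a1 higher. For PE on MD the count was 1 under a stricter filter, under robust dispersion and without the 2 muscle libraries, each time Ndufa13. With the length and GC offset it was also 1, but this was Atp5mk, and Ndufa13 was not called. It was 0 with the groups compared alone or only library numbers from 46 (edgeR, with an unadjusted p below 0.05 for 30 and 12 members). For diet with vehicle the count was 6 of 81 members in numbers up to 45, beside 1842 of 13461 genes. Of the 6, the 2 that were higher were the muscle-type isoforms Cox6a2 and Cox8b. With the replicate number as a block it was 5 for diet with vehicle, adding Ndufa6 and Sdhd, beside 1448 of 13597 genes. The block changed the count by less than 1.5 times elsewhere. Leaving out 1 library gave 2 to 6 for PE on CD, 1 to 5 for diet with vehicle, 1 to 4 for PE on MD and 1 to 3 for diet with PE. DESeq2 called 7, 2, 3 and 1 members, beside 529 of 10402, 1589 of 14850, 299 of 14850 and 793 of 14362 genes.

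Limits: PE, depth and library number cannot be told apart, and the covariate rests on 5 MD + Veh libraries. Most members that passed the adjusted p lay within 0.38 of 0, so counts depend on the fold limit. Cox6a2, Cox7a1 and Cox8b are near 0 counts in most libraries. The precision of near-copies is limited by how Salmon divides shared reads. The cause of the changes under these alternatives was not tested.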
